A study of Homo sapiens with 12 samples.

Results

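The proteasome was followed through 38 genes for its subunits and activators, taken by their symbols from the 58735 genes of the expression table. They are 7 genes of the alpha ring (PSMA1 to PSMA7) and 7 of the beta ring (PSMB1 to PSMB7) of the 20S core, 6 ATPases (PSMC1 to PSMC6) and 11 non-ATPase subunits of the 19S regulatory particle, 3 chaperones that assemble its base (PSMD5, PSMD9 and PSMD10), and 4 activators (PSME1 to PSME4). RNA was sequenced from KGN, a cell line of an adult-type granulosa cell tumor (GCT), and from COV434, described as a juvenile-type GCT line, both labelled wild type. Each line was cultured for 72 h with 77-39, a selective inhibitor of the mitochondrial deacetylase SIRT3, or without it, which gave 4 groups of 3 libraries. The labels write the concentration as 10 μm/ml, whose unit cannot be resolved, and name no vehicle for the untreated cells. Nothing says that the 3 libraries of a group came from separate cultures, so the p-values measure the spread between these libraries, which may be technical.

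The proteasome degrades proteins tagged with ubiquitin. Substrates are bound and deubiquitinated by the 19S particle, unfolded by its ring of ATPases and cut inside the 20S core, where PSMB5, PSMB6 and PSMB7 carry the catalytic sites. Interferon induces PSMB8, PSMB9 and PSMB10, which replace those subunits in the immunoproteasome, and the PA28 activator, a ring of PSME1 and PSME2. When proteasome activity falls, the transcription factor NFE2L1 is known to raise the subunit genes together through antioxidant response elements.

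Markers of the lines were measured against the labels. FOXL2, a transcription factor that defines granulosa cells and adult-type GCT, was at or below 0.0195 FPKM (fragments per kilobase of gene length, scaled by library size) in the 6 libraries labelled KGN and between 11.5 and 14.0 FPKM in the 6 labelled COV434. SMARCA4 and SMARCA2, chromatin remodelling ATPases that are known to be lost in COV434, stood at 2.25 to 2.60 and at most 0.00870 FPKM in the libraries labelled KGN, against 6.51 to 12.6 and 4.51 to 6.48 FPKM in those labelled COV434. These values go against the labels, so the names of the lines are used below only as labels of libraries, and whether they were exchanged was not tested. AMH and INHA, hormone genes of granulosa cells, were at 4.07 to 4.83 and 0.580 to 1.22 FPKM in the libraries labelled KGN and at 5.45 to 9.14 and 2.40 to 5.22 FPKM in those labelled COV434. The other defining granulosa markers NR5A1, AMHR2, FSHR and STAR were at or near 0 in all 12 libraries, and CYP19A1 did not exceed 0.161 FPKM.

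Reads were recovered from FPKM and gene length for every gene, with 15547851 to 18280415 reads in a library, and the 38 genes took 0.395% to 0.535% of them. Among the 6 genes called with 77-39, PSME1 rested on 972 to 2606 reads in a library and PSMD10, the least covered, on 550 to 2019. PSMA6, an alpha ring subunit that every proteasome contains, had only 23 to 89 reads (0.236 to 0.738 FPKM). PSMA2 had 80 to 169 reads (0.891 to 1.86 FPKM) and PSMD9 had 136 to 238 (0.917 to 1.60 FPKM). In GENCODE 29, 70.4% of the coding bases of PSMA6, 97.1% of PSMA2, 58.7% of PSMD9 and 88.6% of PSMA1 are shared on the same strand with a readthrough gene, and these partner genes had at most 0.103 FPKM. How shared reads were counted is not given in the sources used here, so the levels of these 4 genes are uncertain. The coding bases of PSMC1 and PSMD7 overlap a gene on the opposite strand by 47.7% and 28.4%, and the library kit does not mark strand. Of the 38 genes, 29 share no coding base with another gene.

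In the libraries labelled KGN, 5 of the 36 genes tested fell with 77-39 and 1 rose at an adjusted p under 0.05 (limma on log2(FPKM + 1), Benjamini-Hochberg over all genes tested). PSME1, PSMC3, PSME2, PSMC5 and PSMD3 fell and PSMD10 rose. Among all 12671 genes tested, 16.4% fell and 17.6% rose by this rule. The study called differentially expressed genes at an unadjusted p under 0.05, and by that threshold 11 of the 36 genes were lower and 5 higher, or 44.4%, next to 45.3% of all genes. The median log2 fold change of the 36 genes was −0.09, next to 0.01 over all genes, and 35 of the 36 had a 95% interval inside ±0.5. PSMA6 and PSMD9 were below the limit of a mean of 1 FPKM and were not tested. In RNA from a whole culture, fewer cells of a kind and less RNA per cell cannot be told apart.

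**Figure D1:**
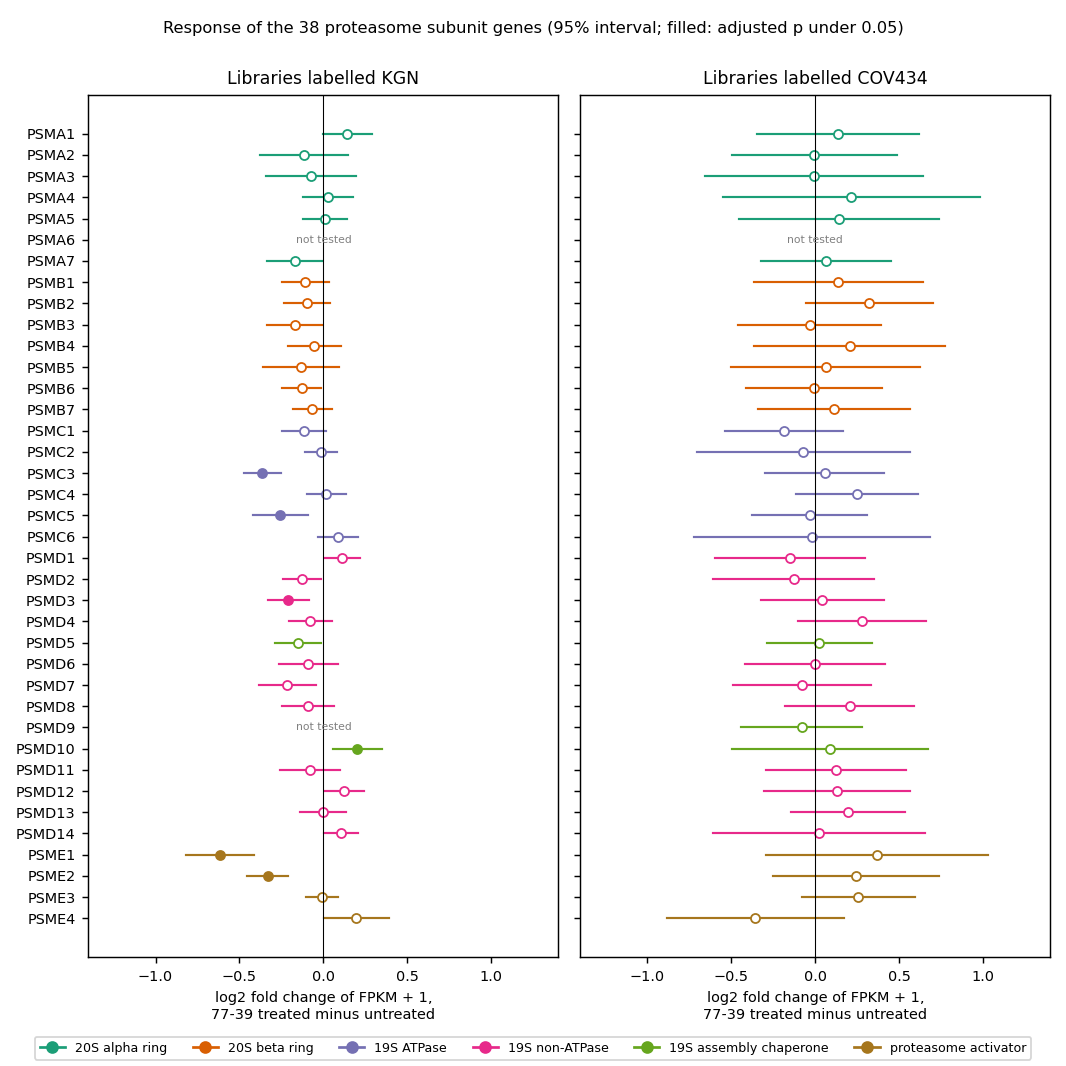
Log2 fold change of FPKM + 1 with 77-39 for the genes tested (points, colored by subgroup) with the 95% interval (lines), 36 in the libraries labelled KGN on the left and 37 in COV434 on the right, with the others marked as not tested. Filled points mark an adjusted p under 0.05: 6 genes are filled on the left, with PSME1 at −0.62, and none on the right, where the intervals are wider.

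The largest fold change was in the PA28 activator, a ring that caps the 20S core in place of the 19S particle. PSME1 (ENSG00000092010, plus strand, chr14:24136158-24138967 of GRCh38) was at 75.3, 64.0 and 65.0 FPKM in the untreated libraries labelled KGN and at 41.2, 42.4 and 48.5 FPKM with 77-39. All 3 treated libraries lay below all 3 untreated ones. It fell by 0.62 ± 0.09 (SE) on the log2 scale, or to 0.652 times the untreated level, with an adjusted p of 0.00262. Its partner PSME2 (ENSG00000100911, minus strand, chr14:24143362-24147570) lies beside it, and was at 34.5, 31.8 and 31.1 FPKM without the compound and 25.2, 26 and 25.6 FPKM with it. It fell by 0.33 ± 0.05 (SE) with an adjusted p of 0.00369, again with no overlap between the groups. Neither of the other activators passed the test. Nuclear PSME3 (PA28γ) had a log2 fold change of −0.01 (95% interval −0.10 to 0.08). PSME4 (PA200) was at 9.14, 10.4 and 10.6 FPKM untreated and 12.1, 12.5 and 10.4 FPKM treated, with a log2 fold change of 0.20 and an adjusted p of 0.103. The summed level of the 4 activators was 138 ± 6.90 FPKM untreated and 109 ± 2.62 FPKM treated (SD, n = 3).

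The promoters of both PA28 genes are printed because these genes carry the largest response, with that of PSMB9, an immunoproteasome subunit described below. Each window runs from 250 bases before the RefSeq start to 50 bases after it (GRCh38.p14), 5′ to 3′ along the gene. Capitals mark the core of the interferon-stimulated response element (GAAA, any 2 bases, GAAA) and TGACNNNGC, a strict form of the antioxidant response element, on either strand.
PSME1 (plus strand, chr14:24135944-24136243): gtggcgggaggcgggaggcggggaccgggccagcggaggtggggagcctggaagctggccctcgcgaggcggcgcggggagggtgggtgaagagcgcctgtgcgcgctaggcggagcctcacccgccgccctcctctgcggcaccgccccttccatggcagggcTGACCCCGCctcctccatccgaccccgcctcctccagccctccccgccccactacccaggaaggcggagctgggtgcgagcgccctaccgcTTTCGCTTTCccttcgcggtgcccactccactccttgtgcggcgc
PSME2 (minus strand, chr14:24146561-24146860): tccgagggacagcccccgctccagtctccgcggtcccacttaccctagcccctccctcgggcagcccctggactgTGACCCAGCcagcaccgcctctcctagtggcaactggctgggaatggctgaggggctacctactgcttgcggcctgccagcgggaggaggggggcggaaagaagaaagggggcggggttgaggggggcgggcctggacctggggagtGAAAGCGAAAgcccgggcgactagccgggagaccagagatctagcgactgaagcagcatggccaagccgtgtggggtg
PSMB9 (plus strand, chr6:32853942-32854241): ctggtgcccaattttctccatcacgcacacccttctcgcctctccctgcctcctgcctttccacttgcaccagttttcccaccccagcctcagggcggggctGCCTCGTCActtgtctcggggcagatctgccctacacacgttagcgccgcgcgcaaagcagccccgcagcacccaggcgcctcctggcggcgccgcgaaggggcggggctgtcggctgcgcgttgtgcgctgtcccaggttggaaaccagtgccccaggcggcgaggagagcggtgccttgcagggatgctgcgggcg
Counted from the start base as 0, TGACCCCGC begins at −86 in PSME1, and the interferon core, on the opposite strand as TTTCGCTTTC, begins at 5. In PSME2, TGACCCAGC begins at −175 and GAAAGCGAAA at −28. The PSMB9 window holds GCCTCGTCA, the antioxidant letters on the opposite strand, at −148, and no interferon core. The RefSeq starts of all 3 genes lie inside the span of the gene in the table, but not all near its 5′ end. The span of PSMB9 opens at chr6:32844136, upstream of its window at chr6:32853942-32854241. That of PSME2, on the minus strand, opens at chr14:24147570, also upstream of its window. No other start of these 3 genes was searched. A window was found for 33 of the 38 genes, and those of PSMA7, PSMB1, PSMB6, PSMB7 and PSMD4 were not in the table. The interferon core, which was searched after the values had been seen, was in 4 of the 33 windows (PSMA4, PSMB4, PSME1 and PSME2), or 12.1%, and in 4.38% of the windows of all 27305 genes. It was also in the windows of PSMB8 and PSMB10. TGACNNNGC was in 12 of the 33, or 36.4%, against 16.1% of all genes, and its looser form TGANNNNGC in 22, or 66.7%, against 47.1%. CCAAT was in 17, or 51.5%, against 39.7%, and the ETS letters CCGGAAG in 12, or 36.4%, against 12.2%. These counts describe letters in a window, and all strict matches are also counted among the loose ones.

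Of the 6 ATPases of the 19S base, which unfold substrates, 2 fell. PSMC3 (ENSG00000165916, minus strand, chr11:47418769-47426473) was at 55.1, 54.4 and 51.0 FPKM without 77-39 and at 41.7, 40.5 and 41.7 FPKM with it. It fell by 0.36 ± 0.05 (SE) with an adjusted p of 0.00189, the smallest among the 36 genes. PSMC5 (ENSG00000087191, plus strand, chr17:63827152-63832026) was at 20.1, 17.9 and 19.2 FPKM untreated and 16.4, 14.4 and 16.6 FPKM treated, and fell by 0.26 ± 0.07 (SE) with an adjusted p of 0.0281. The groups did not overlap for either gene. The call for PSMC5 was lost without untreated library 1 or 3 or treated library 1 or 2, at adjusted p of 0.0645, 0.0807, 0.0541 and 0.0815. The other 4 ATPases ranged from −0.12 for PSMC1 (8.10, 8.08 and 7.82 FPKM treated against 9.44, 8.60 and 8.25 FPKM untreated) to 0.09 for PSMC6 (8.35, 8.41 and 8.24 FPKM treated against 7.63, 7.45 and 8.32 FPKM untreated), and none passed the test.

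Of the 11 non-ATPase subunits, which form the rest of the base and the lid, PSMD3 alone passed the test. This lid subunit (ENSG00000108344, plus strand, chr17:39980797-39997960) was at 30.1, 30.4 and 31.0 FPKM untreated and 24.7, 26.3 and 27.8 FPKM treated, and fell by 0.21 ± 0.05 (SE) with an adjusted p of 0.0208. Without untreated library 2 or 3 or treated library 1 or 2 its adjusted p was 0.0590, 0.0733, 0.0614 and 0.0673. PSMD7, the inactive partner of the lid deubiquitinase, had a fold change of the same size, −0.21, with 18.3, 15.5 and 16.1 FPKM untreated, 14.1, 13.4 and 15.1 FPKM treated and an adjusted p of 0.0584. The deubiquitinase PSMD14 itself had 0.11 and an adjusted p of 0.0977. The highest value was 0.13 for the lid subunit PSMD12, with 13.9, 13.6 and 13.9 FPKM untreated and 15.1, 15.97 and 14.5 FPKM treated and an adjusted p of 0.0852. The ubiquitin receptor PSMD4 had −0.08 (95% interval −0.20 to 0.05), and the scaffold PSMD1 had 0.11 (0.01 to 0.22) with an adjusted p of 0.0935.

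No gene of the 20S core passed the test in the libraries labelled KGN, of 13 tested. In the alpha ring, which gates the entry to the core, the values ran from −0.17 for PSMA7 to 0.14 for PSMA1. PSMA7 was at 101.2, 102 and 97.03 FPKM untreated and 82.1, 87.3 and 97.7 FPKM treated (adjusted p = 0.102), and PSMA1 at 9.33, 8.53 and 8.51 FPKM untreated and 9.30, 10.6 and 9.60 FPKM treated (adjusted p = 0.114). In the beta ring, which holds the catalytic sites, all 7 values were below 0, from −0.17 for PSMB3 to −0.05 for PSMB4, with a median of −0.11. Of the 36 genes tested, 26 were below 0, as were 6129 of all 12671 genes. The beta ring values stayed below 0 under each scaling tried of these same libraries, and 6 of 7 did without treated library 1. PSMB3 was at 73.2, 76.9 and 74.0 FPKM untreated and 60.4, 66.5 and 72.3 FPKM treated, with no overlap and an adjusted p of 0.101. PSMB4 was at 95.3, 94.9 and 95.2 FPKM untreated and 84.7, 90.4 and 100.4 FPKM treated. The beta ring summed to 453 ± 13.5 FPKM untreated and 420 ± 26.3 FPKM treated (SD, n = 3).

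Among the chaperones of the 19S base, PSMD10 (gankyrin; ENSG00000101843, minus strand, chrX:108084207-108091618) was at 14.2, 13.1 and 13.0 FPKM untreated and 14.6, 15.5 and 16.8 FPKM treated. It rose by 0.20 ± 0.06 (SE) with an adjusted p of 0.0440, with no overlap between the groups. The call was lost without untreated library 2 or 3 or treated library 2 or 3, at 0.121, 0.130, 0.109 and 0.0959. PSMD5 was at 14.8, 14.1 and 15.0 FPKM untreated and 12.5, 14.1 and 12.7 FPKM treated, with a log2 fold change of −0.15 and an adjusted p of 0.0827. PSMD9, which was not tested, was at 1.09, 1.01 and 1.04 FPKM untreated and 0.917, 0.983 and 0.927 FPKM treated.

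**Figure D2:**
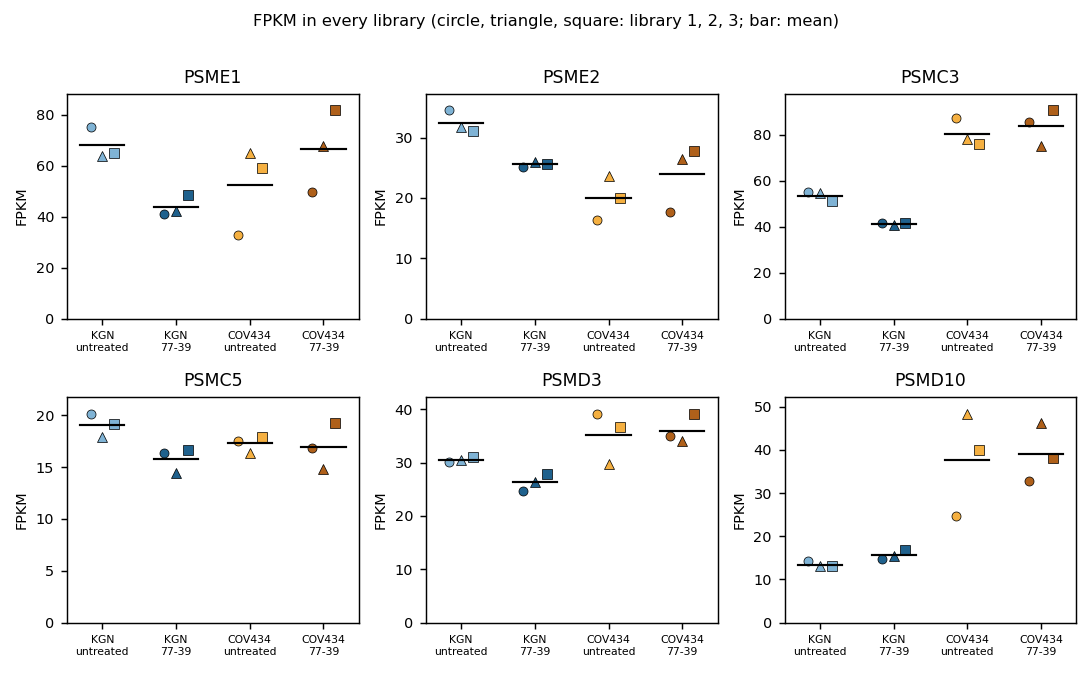
FPKM of the 6 genes with an adjusted p under 0.05 in the libraries labelled KGN, in each of the 12 libraries (circle, triangle and square for library 1, 2 and 3; bar for the group mean; axes start at 0). In KGN the treated points of PSME1, PSME2, PSMC3, PSMC5 and PSMD3 lie below all untreated points and those of PSMD10 above, whereas in COV434 the groups overlap for all 6 genes.

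In the libraries labelled COV434, none of the 37 genes tested passed an adjusted p under 0.05, and none passed an unadjusted p under 0.05. Over all 12060 genes tested, 0.0415% (5 genes) and 8.0% did. The log2 fold changes ran from −0.36 for PSME4 to 0.37 for PSME1, with 23 of 37 above 0 and a median of 0.06, next to −0.02 over all genes. The intervals were wide: 11 of 37 lay inside ±0.5 and 36 inside ±1, so a change of the size seen for PSMC3 or PSME2 was not detectable for most genes here. Libraries of the same number deviated together here, though no label says that they share a culture or batch. With the number as a replicate block, 4 genes were higher at an unadjusted p under 0.05 (PSME1, PSMD4, PSMB2 and PSME3), where 6.85% of all genes were, and none passed an adjusted p under 0.05.

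The genes at the ends of each subgroup in the libraries labelled COV434 were as follows. PSME1 was at 32.9, 64.9 and 59.2 FPKM untreated and 49.7, 67.9 and 81.8 FPKM treated, with overlapping groups and an adjusted p of 0.860. Within each library number the treated value was the higher. PSME2 was at 16.3, 23.6 and 19.99 FPKM untreated and 17.7, 26.5 and 27.9 FPKM treated, with a log2 fold change of 0.24 (−0.25 to 0.74). The proteasome activator PSME4 was at 8.396, 8.85 and 9.09 FPKM untreated and 9.61, 6.57 and 4.53 FPKM treated, with treated libraries on both sides of the untreated ones. In the beta ring PSMB2 was at 45.4, 58.5 and 56.3 FPKM untreated and 66.5, 72.9 and 60.95 FPKM treated, with no overlap, a log2 fold change of 0.32 (−0.06 to 0.70) and an adjusted p of 0.721, the lowest of the 37. PSMB3 had −0.03 (−0.46 to 0.39). In the alpha ring PSMA4 was at 10.4, 28.1 and 21.7 FPKM untreated and 18.0, 27.3 and 20.9 FPKM treated, the widest spread of all, and PSMA3 was at 10.1, 21.4 and 16.4 FPKM untreated and 14.3, 20.2 and 12.03 FPKM treated. Of the ATPases, PSMC4 was at 52.5, 49.1 and 52.2 FPKM untreated and 58.1, 54.7 and 71.6 FPKM treated, also with no overlap and an adjusted p of 0.790, and PSMC1 had −0.19 (−0.54 to 0.17). Of the non-ATPase subunits, PSMD4 was at 69.9, 76.1 and 76.3 FPKM untreated and 80.9, 83.7 and 108 FPKM treated, with no overlap and an adjusted p of 0.785, and PSMD1 had −0.15 (−0.60 to 0.29). The chaperones lay between −0.08 for PSMD9 (1.26, 1.60 and 1.52 FPKM untreated, 1.14, 1.395 and 1.43 FPKM treated) and 0.09 for PSMD10.

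Much of this spread was shared by the genes of the complex within a library, and whether it was particular to them was not tested. In the untreated library 1 labelled COV434, 28 of the 37 genes had their lowest value of the group, with a median deviation from the group mean of −0.26 (log2), while the median over all 12060 genes was −0.01. In untreated library 2, 25 of the 37 had their highest value, with a median of 0.21. The treated libraries deviated by −0.07, 0.13 and 0.04. In the libraries labelled KGN the same medians stayed between −0.03 and 0.04. The SD between replicates had a median of 0.245 over the 37 genes in COV434 and 0.0725 over the 36 genes in KGN, next to 0.229 and 0.0860 over all genes. The median log2 fold change of the 37 genes in COV434 followed these libraries and was −0.05 without untreated library 1 and 0.19 without untreated library 2. Mitochondrially encoded genes took 9.63%, 8.004% and 8.72% of the reads in these untreated libraries and 13.5%, 8.74% and 7.71% in the treated ones. Deviations in COV434 were also correlated with GC content, the share of bases G and C. The correlations were 0.246, −0.257 and −0.0687 in untreated libraries 1, 2 and 3, and −0.160, −0.103 and 0.255 in the treated ones. Those with log gene length ran from −0.266 to 0.296. Median GC content was 47.5% for the 37 genes and 49.99% for all genes tested. The parts of RNA quality, GC content and gene length in the spread were not tested.

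**Figure D3:**
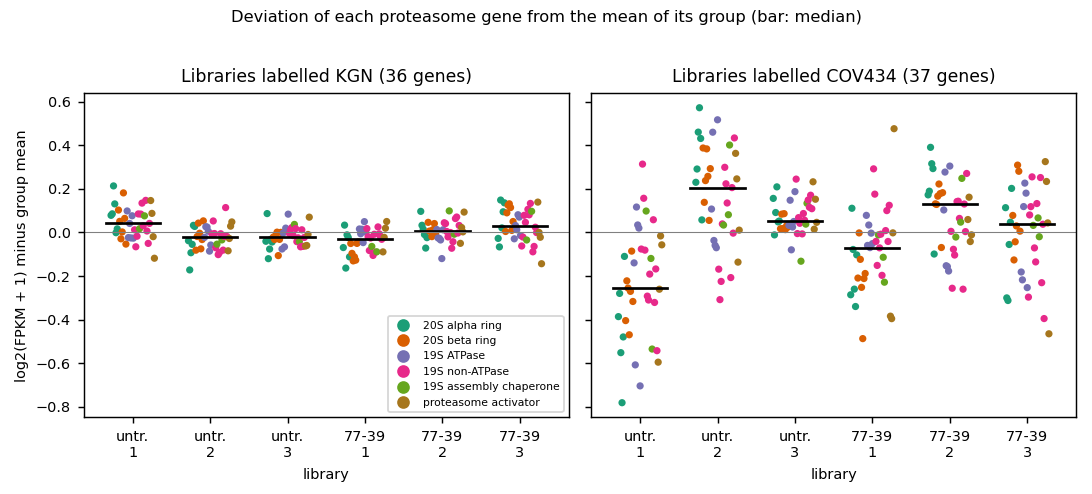
Log2(FPKM + 1) of each gene tested minus the mean of its group of 3 libraries (points, colored by subgroup; bar for the median), by library. In KGN the medians lie between −0.03 and 0.04, whereas in COV434 the untreated library 1 lies at −0.26 and the untreated library 2 at 0.21.

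The difference between the responses (KGN minus COV434) was tested as the interaction of line and treatment over all 12 libraries. This fit takes 1 spread per gene for both lines. The median SD between replicates was 0.0860 in KGN and 0.229 in COV434 over all genes, so its p-values may be too small. None of the 37 genes passed an adjusted p under 0.05, next to 3.6% of all 13127 genes tested. At an unadjusted p under 0.05, 5 genes passed, all with the response in KGN below that in COV434 (PSMC3, PSME1, PSMD4, PSMB2 and PSME2), and 8.44% of all genes did so in that direction. The difference was −0.98 (95% interval −1.73 to −0.24) for PSME1 with an adjusted p of 0.147, −0.57 (−1.09 to −0.06) for PSME2 with 0.220, and −0.42 (−0.72 to −0.12) for PSMC3 with 0.124. For PSME4 it had the other sign, 0.55 (−0.02 to 1.13), with 0.298. With the replicate block, the adjusted p of PSME1 was 0.0313, which passes, and that of PSME2 was 0.0566. Without treated library 1 labelled COV434, PSME2 (−0.77) and PSME4 (0.79) passed, each with an adjusted p of 0.0295, and PSME1 was at 0.0557.

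Without the compound, 21 of the 37 genes tested differed between the lines. Of these, 7 were higher in the libraries labelled KGN (PSMA3, PSMB1, PSMC1, PSMD1, PSMD6, PSMD8 and PSME2) and 14 lower (PSMA5, PSMA7, PSMB2, PSMB3, PSMB4, PSMB6, PSMC3, PSMC4, PSMD2, PSMD4, PSMD9, PSMD10, PSMD13 and PSME3) at an adjusted p under 0.05. Of all 13098 genes, 32.6% were higher and 36.4% lower. This split depends on the scaling. The library total behind FPKM exceeded the recovered reads by a ratio of 1.07 to 1.10 for KGN, while this ratio was 0.911 to 0.978 for COV434. Scaled by the recovered reads themselves, the median difference of all genes moved from −0.02 to 0.15 and 12 genes were higher and 12 lower. With voom on those reads the median was 0.18 and the split also 12 and 12, with quantile normalization it was 15 and 7, and with the trend on gene length removed it was 12 and 13. The calls of PSMA5, PSMD9 and PSMA3 held in only 5, 7 and 9 of 17 alternatives.

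Of the 21 genes, 10 passed the test under all 17 alternatives (PSMA7, PSMB2, PSMB3, PSMB6, PSMC1, PSMD1, PSMD4, PSMD6, PSMD10 and PSME2). PSMB4 (−0.84), PSMD2 (−0.73), PSMC3, PSMC4, PSMD13 and PSME3 did so under 16. PSMD10 was at 14.2, 13.1 and 13.0 FPKM in KGN and 24.8, 48.3 and 40.0 FPKM in COV434, a log2 difference of −1.37 (−1.93 to −0.81) with an adjusted p of 0.00179. PSMB3, a beta ring subunit without a catalytic site, had −1.28 (−1.62 to −0.94) at 73.2, 76.9 and 74.0 against 153, 216 and 185 FPKM. PSMD1 went the other way, at 30.9, 30.5 and 30.5 FPKM in KGN and 11.6, 10.8 and 14.7 FPKM in COV434, with 1.26 (0.96 to 1.55) and an adjusted p of 0.000115. PSMD4 had −1.13 (−1.36 to −0.91), at 35.3, 31.6 and 32.9 FPKM against 69.9, 76.1 and 76.3 FPKM. PSMA7, the most abundant of the 38 genes in both lines, had −1.08 (−1.32 to −0.85), at 101.2, 102 and 97.03 FPKM against 197, 222 and 221 FPKM. PSMC1 had 0.98 (0.75 to 1.21), at 9.44, 8.60 and 8.25 FPKM against 3.49, 4.33 and 4.06 FPKM. PSME2 had 0.69 (0.35 to 1.03). None of these groups overlapped. Summed over the 38 genes, the level was 1249 ± 34.7 FPKM in KGN and 1706 ± 198 FPKM in COV434, and the beta ring summed to 453 ± 13.5 and 699 ± 130 FPKM (SD, n = 3). As a share of recovered reads, which does not use the library total behind FPKM, the 38 genes took 0.447%, 0.419% and 0.421% in KGN and 0.413%, 0.504% and 0.482% in COV434, and the lines overlapped.

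**Figure D4:**
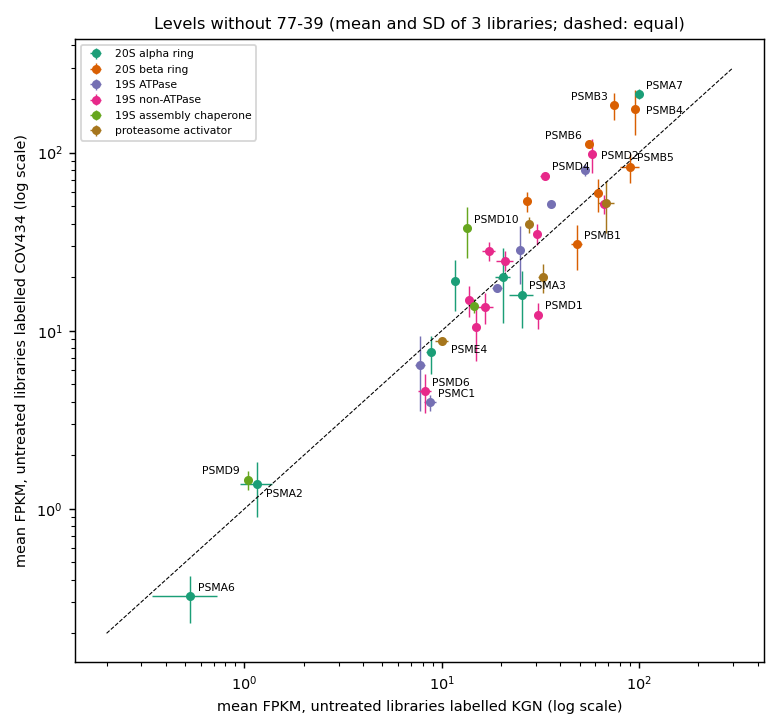
Mean FPKM of each of the 38 genes in the untreated libraries labelled KGN (x axis) and COV434 (y axis), both on log scales, with the SD of 3 libraries as bars and a dashed line for equal levels. PSMA7, PSMB3 and PSMD10 lie above the line and PSMD1 and PSMC1 below it, while PSMA2, PSMD9 and PSMA6 lie far below the other genes in both lines.

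Subunits of one ring enter the complex in equal number, but their mRNA levels per length did not match. In the untreated libraries labelled KGN, the alpha ring ran from 0.533 FPKM for PSMA6 to 100.1 FPKM for PSMA7 with a median of 11.7. The levels of PSMA6, PSMA2 and PSMA1 are uncertain because of their readthrough genes, so this low end and median are too. Among the alpha genes that share no coding base, levels ran from 11.7 FPKM for PSMA5 to 100.1 FPKM for PSMA7. The beta ring ran from 27.1 FPKM for PSMB2 to 95.1 FPKM for PSMB4 with a median of 61.7. The ATPases ran from 7.80 FPKM for PSMC6 to 53.5 FPKM for PSMC3, and the non-ATPase subunits from 8.21 FPKM for PSMD6 to 66.2 FPKM for PSMD8. The gene lengths behind FPKM count all annotated exons of a gene, 1750 bases for PSMA7 and 6506 for PSMA6, which lowers the value of genes with long exons that the transcripts in use leave out.

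Of the catalytic subunits, the constitutive PSMB6 and the inducible PSMB8 and PSMB10 were lower in the untreated libraries labelled KGN, and PSMB5, PSMB7 and PSMB9 did not pass the test. PSMB5, with the chymotrypsin-like site, was at 102, 85.3 and 83.5 FPKM in the untreated libraries labelled KGN and 68.1, 98.6 and 83.1 FPKM in those labelled COV434, a log2 difference of 0.13 (−0.26 to 0.51). PSMB7, with the trypsin-like site, had 0.08 (−0.31 to 0.47), at 59.4, 64.0 and 61.7 against 46.5, 71.5 and 59.2 FPKM. PSMB6, with the caspase-like site, was at 58.2, 54.3 and 54.4 FPKM against 105, 116 and 114 FPKM, a difference of −0.99 (−1.21 to −0.77). PSMB8, which takes the place of PSMB5, was at 1.17, 1.25 and 0.678 FPKM in KGN and 35.8, 49.9 and 50.8 FPKM in COV434, a difference of −4.51 (−4.94 to −4.08) with an adjusted p of 1.27e-06. It made up 1.13% ± 0.319 of the PSMB8 and PSMB5 level in KGN and 35.3% ± 2.31 in COV434 (SD, n = 3). PSMB10, which takes the place of PSMB7, was at 1.05, 1.42 and 1.34 FPKM against 5.37, 5.08 and 4.19 FPKM, a difference of −1.37 (−1.65 to −1.10). Of its coding bases, 58.3% are shared with a readthrough gene. PSMB9, which takes the place of PSMB6, did not pass the test, at 6.32, 6.15 and 5.76 FPKM against 4.66, 10.1 and 6.67 FPKM (−0.15, interval −0.71 to 0.41). The thymus form PSMB11 and the testis form PSMA8 were at or near 0 in all 12 libraries.

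With 77-39, PSMB9 (ENSG00000240065, plus strand, chr6:32844136-32859585) differed between the lines in its response, and it was the only one of the 2 inducible or tissue-specific core genes tested in KGN that passed the test. In the libraries labelled KGN it was at 3.55, 2.81 and 3.89 FPKM with the compound, below all untreated libraries, and fell by 0.69 ± 0.10 (SE) with an adjusted p of 0.00267. In those labelled COV434 it was at 10.6, 16.8 and 14.7 FPKM, above all untreated libraries, with a log2 fold change of 0.92 (0.30 to 1.53). The adjusted p there was 0.345 and, with the replicate block, 0.0475. The difference between the responses was −1.60 (−2.30 to −0.91) with an adjusted p of 0.0225, and 0.00994 with the block. Leaving out single libraries raised this adjusted p to between 0.0546 and 0.0743 for untreated 1, 2 and 3 and treated 1 and 2 labelled KGN and for untreated 3 and treated 2 labelled COV434. PSMB9 made up 9.85% ± 0.303 of the PSMB9 and PSMB6 level in untreated KGN and 6.31% ± 1.06 with 77-39, and 5.96% ± 1.94 and 11.2% ± 2.20 in COV434 (SD, n = 3). PSMB10 in KGN was at 0.684, 0.858 and 0.968 FPKM with 77-39, a log2 fold change of −0.31 with an adjusted p of 0.0824. PSMB8 in KGN was at 0.754, 0.625 and 0.439 FPKM, below the limit for the test. The constitutive PSMB5, PSMB6 and PSMB7 had −0.14, −0.13 and −0.07 in KGN, with adjusted p of 0.310, 0.0859 and 0.337.

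**Figure D5:**
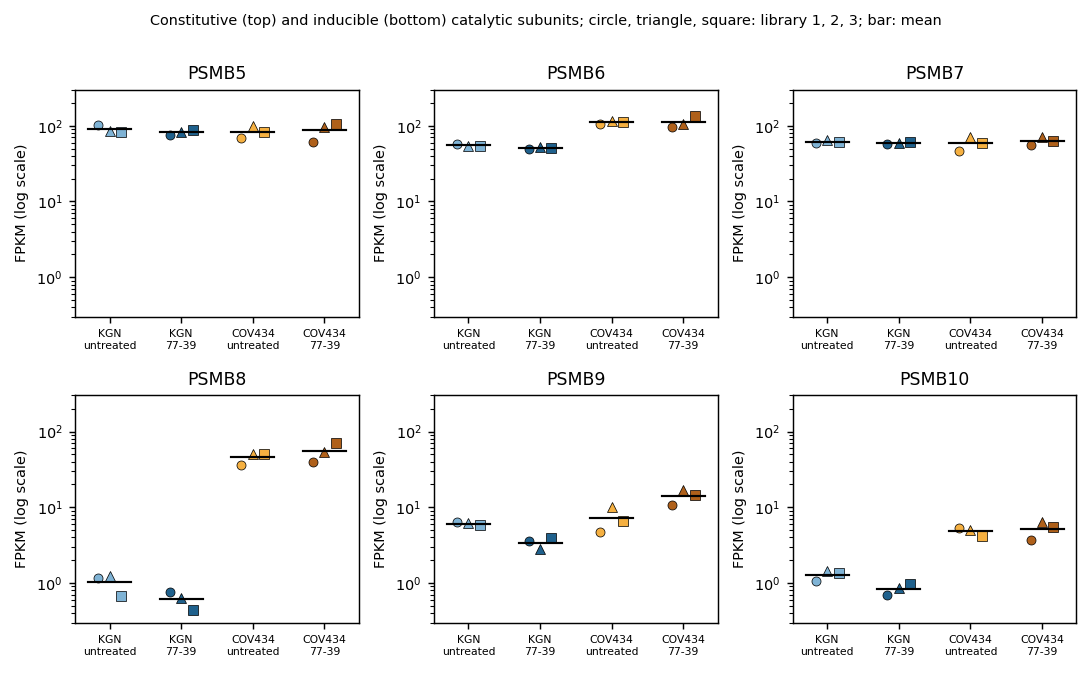
FPKM on a log scale of the constitutive catalytic subunits PSMB5, PSMB6 and PSMB7 (top) and of the inducible PSMB8, PSMB9 and PSMB10 (bottom) in each of the 12 libraries (circle, triangle and square for library 1, 2 and 3; bar for the group mean). PSMB8 lies between 0.439 and 1.25 FPKM in KGN and between 35.8 and 69.7 FPKM in COV434, and PSMB9 is lower with 77-39 in KGN and higher in COV434.

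A further 4 lists of genes around the proteasome were counted in the same fits, with background shares as for the 36 genes above. None of their genes passed an adjusted p under 0.05 in the libraries labelled COV434. Of 13 further 26S subunits, associated factors and inhibitors, 5 rose and 1 fell in those labelled KGN. ECPAS, a scaffold that binds the 26S proteasome, rose by 0.31, the proteasome-associated zinc finger proteins ZFAND2A and ZFAND5 by 0.28 and 0.27, the deubiquitinase USP14 by 0.21 and the proteasome-bound thioredoxin TXNL1 by 0.16, with adjusted p of 0.0218, 0.0158, 0.00423, 0.00871 and 0.0336. AKIRIN2, which brings proteasomes into the nucleus, fell by 0.26 with an adjusted p of 0.0261. The inhibitor PSMF1 had −0.01 (−0.13 to 0.10) and the ubiquitin receptor ADRM1 −0.08 (−0.28 to 0.11). Of 6 assembly factors, PSMG2 fell by 0.32 (adjusted p = 0.00423) and PSMG3 by 0.20 (adjusted p = 0.0368), and none rose. POMP, which matures the 20S core, was at 42.5, 34.5 and 33.2 FPKM untreated and 41.9, 46.6 and 48.3 FPKM treated, with 0.31 and an adjusted p of 0.0519.

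Of 14 genes of the NFE2L1 pathway and its partners, 3 rose and 1 fell in the libraries labelled KGN. NFE2L1 itself was at 37.0, 39.4 and 37.8 FPKM untreated and 41.1, 41.7 and 41.4 FPKM treated, with 0.12 and an adjusted p of 0.0687. Its relative NFE2L2 had 0.08 with an adjusted p of 0.294. The small MAF partners MAFF and MAFG rose by 0.58 and 0.40 and the glycosyltransferase OGT by 0.50, and KEAP1, the repressor of NFE2L2, fell by 0.34, with adjusted p of 0.00111, 0.00129, 0.000478 and 0.00236. In the libraries labelled COV434, NFE2L2 was at 18.5, 34.0 and 29.9 FPKM untreated and 18.9, 17.9 and 15.1 FPKM treated, with −0.60 and an adjusted p of 0.523. MAFF was at 2.25, 2.10 and 2.41 FPKM untreated and 4.005, 3.81 and 3.71 FPKM treated in KGN, but 6.18, 6.41 and 5.82 and then 4.07, 4.87 and 5.29 FPKM in COV434. The difference between the responses was 0.89 (0.61 to 1.18) for MAFF with an adjusted p of 0.00506 and 0.82 (0.41 to 1.24) for MAFK with 0.0394. Of 15 genes for ubiquitin, its activating enzymes and shuttle factors, SQSTM1 (p62) rose by 0.32 and 4 fell in KGN, among them BAG6 by 0.28, UBA1 by 0.22 and UBQLN4 by 0.12, with adjusted p of 0.00836, 0.0124, 0.0286 and 0.0421. Across 20 alternatives, the calls of MAFF, MAFG, OGT and KEAP1 held in all 20, those of ECPAS and AKIRIN2 in 14, of UBA1 and PSMG3 in 9, of TXNL1 in 6, and of UBQLN4 in 4.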

How the data were processed

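RNA-seq values of 12 libraries, 3 for each line and treatment, were used, with groups from the labels. The authors deposited FPKM per gene, which scales counted fragments by gene length and library size. Per the submitters' processing notes, reads were aligned with HISAT2 2.0.5. Those notes name mouse builds, but the genes and coordinates of the table are those of GENCODE 29 on human GRCh38. The counter is not given in the sources used here. Libraries were made with a TruSeq RNA kit and sequenced on an Illumina NovaSeq by a service company. FPKM multiplied by gene length gave whole reads within 0.05 for 100% of values, and voom on these reads called 2658 genes higher and 2358 lower in KGN.

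Within each line, limma 3.58.1 (R 4.3.3; lmFit and trended eBayes) compared log2(FPKM + 1) of the genes whose mean reached 1 FPKM. A pseudocount of 1 understates changes of low genes. The difference between responses was the interaction in a fit of 12 libraries, and the untreated lines were compared over 6. All p-values are two-sided and were adjusted by Benjamini and Hochberg's method across the genes tested, and an adjusted p under 0.05 was a call. Alternatives were the pseudocount, the filter, scaling, voom on recovered reads, a joint fit, protein-coding genes, trends with gene length, the library number as a block, and each library left out. Scaling by recovered reads, the GC trend and the block combined with removal of the GC or the length trend were chosen after seeing the data. The scripts were tested on simulated data.

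Same-numbered libraries deviated together in COV434 (correlations of treated and untreated deviations of 0.400, 0.474 and 0.166) and not in KGN (−0.02 for each). The block was therefore used beside results in COV434 and for the difference, where it also covers KGN. Libraries of unlike number in COV434 had correlations from −0.469 to 0.154. The highest of these, untreated 3 with treated 2, was close to the 0.166 of number 3. The numbers come from the sample titles, which do not say what libraries of the same number share, so results with the block depend on an assumed pairing.

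The members and lists were chosen with earlier results of these data known, and no list was tested as a set. Single values of some genes of the lists are not reported here. Genes named with values in each library of a comparison are those called in COV434 or for the difference, the highest and lowest response of each subgroup in each line, the largest difference between untreated lines, and the catalytic subunits. As exceptions, treated values of each library are not printed for PSMB3, PSMC1, PSMD1, PSMD10, PSMB8 and PSMB10 in COV434. They are also not printed for PSMB5, PSMB6 and PSMB7 in either line. Of the other lists, the genes called in KGN with the largest change, NFE2L1, NFE2L2 and POMP were named. PSMD3, PSMC5 and other genes outside this rule were named after their values were seen. Motif letters were searched on both strands of RefSeq promoter windows, and the interferon core was added after the values had been seen. Figures were drawn with Python 3.11.15 and matplotlib 3.10.9.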

Additional observations from a re-analysis of the deposited data

Results flagged for a closer look

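The responses of 3 genes outside the 38 differed between the lines by the test of the interaction. They are 1 of 3 inducible or tissue-specific core genes tested and 2 of 14 genes tested in the NFE2L1 list. None passed in the other lists, and 3.6% of all 13127 genes did. As given above, the p-values of this fit may be too small. For PSMB9, the inducible core subunit, the response in the libraries labelled KGN minus that in the libraries labelled COV434 was −1.60 on the log2 scale, with an adjusted p of 0.0225 (limma). For MAFF, a small MAF partner of NFE2L1, it was 0.89 with an adjusted p of 0.00506. For MAFK, another small MAF gene, it was 0.82 with an adjusted p of 0.0394. PSMB9 was lower with 77-39 in 3 of 3 libraries labelled KGN and higher in 3 of 3 labelled COV434, and MAFF went the other way in each line, without overlap of treated and untreated libraries. MAFK was at 2.36, 2.28 and 2.20 FPKM with 77-39 in KGN, overlapping the untreated 2.65, 2.11 and 2.19 FPKM, and at 14.7, 13.9 and 15.4 FPKM in COV434, below the untreated 34.8, 23.8 and 23.6 FPKM. In COV434 alone and without the replicate block, none of the 3 responses passed the test. The adjusted p there (limma) was 0.345 for PSMB9, 0.646 for MAFF and 0.183 for MAFK. The adjusted p of MAFK was 0.0622, 0.114 and 0.107 without untreated library 1, 2 or 3 labelled KGN, 0.111, 0.106 and 0.0852 without treated library 1, 2 or 3 of that line, and 0.0891 without treated library 2 labelled COV434, and that of PSMB9 reached 0.0743 without treated library 2 labelled KGN. Across 25 alternatives, which include each library left out, the difference held in all 25 for MAFF, in 17 for PSMB9 and in 13 for MAFK. Some of the losses were therefore under other processing.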

How the results depend on the processing

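The number of the 38 genes that fell in the libraries labelled KGN was 5, and became 8 with voom, 8 with the GC trend removed, 1 in the joint fit of 12 libraries (PSMC3), and 3 to 8 with a library left out. The number that rose was 1, and became 2 with quantile normalization or voom, 0 with either other filter, median-ratio scaling, the joint fit, the GC trend removed or the replicate block with or without that removal, and 0 to 2 with a library left out. PSMC3 passed the test under all 20 alternatives, PSME1 and PSME2 under 19, PSMC5 under 14, PSMD3 under 13 and PSMD10 under 9. The median in KGN stayed between −0.11 and −0.05. The replicate block, paired by library number, left 5 lower calls in KGN, where the numbers share no deviation. In COV434 none of the 38 genes passed an adjusted p under 0.05 under any alternative. Their count higher at an unadjusted p was 4 in the joint fit, 4 with the replicate block, 1 with the GC trend removed, 5 with both and 4 with the block and the length trend removed. The count lower was 1 with the block and the GC trend removed, and 0 to 1 with a library left out. The count for the difference was 1 with the block (PSME1), 3 with the block and the GC trend removed (PSMB2, PSME1 and PSME2), 1 with the block and the length trend removed, and 0 to 2 with a library left out. In the untreated comparison, 7 higher genes became 15 with quantile normalization, 12 with voom, with the length trend removed or by recovered reads, and 4 to 8 with a library left out (4 without untreated 1 or 3 labelled KGN or untreated 3 labelled COV434). The 14 lower genes became 7 with quantile normalization and 12 to 16 with a library left out. No call reversed. No paired analysis was possible because lines share no culture in the untreated comparison. With 1 library left out, a group of 2 sets its spread with the other groups. Depth limits PSMA6, PSMA2 and PSMD9 most. The causes of these changes were not tested.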
